A study of Mus musculus with 2 samples.

Results

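Begain, Dlk1, Rtl1 and Dio3 are the protein-coding genes of the imprinted Dlk1-Dio3 cluster on mouse chromosome 12. They were taken as the entries of these names in the authors' catalog of known imprinted genes, and make up 4 of its 128 entries. Expression was compared in E17.5 whole brains of F1 embryos from reciprocal crosses between the laboratory strain C57BL/6J and the wild-derived strain CastEi/J. The BxC library came from an embryo with a C57BL/6J mother and a CastEi/J father, and the CxB library from an embryo of the reverse cross. Each cross was represented by 1 polyA+ RNA-Seq library from 1 brain, and the labels name no treatment of the embryos. By the methods the CxB brain was male, and the BxC brains of the study were of both sexes without a word on which gave the deposited library, so sex may differ between the libraries.

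Imprinted genes are expressed mainly from the allele of 1 parent, and a reciprocal cross separates the effect of the parent from that of the strain. In this cluster the paternal chromosome is known to express the coding genes, and the maternal chromosome the long noncoding RNAs Meg3, Rian and Mirg with many small RNAs. Dlk1 encodes a transmembrane protein related to the Notch ligands. Rtl1 derives from the gag and pol genes of a retrotransposon and lies opposite maternally expressed miRNAs. Dio3 encodes the deiodinase that inactivates thyroid hormone, and Begain encodes a protein that binds the scaffold of the postsynaptic density. The catalog marks Dlk1, Rtl1 and Dio3 as paternally expressed and gives no allele for Begain. The deposited alignments hold no bases, so the parental origin of the reads was not analysed here.

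The BxC library held 128944754 aligned reads of 36 bases and the CxB library 109719746. These reads lay on 36575945 and 31155725 distinct alignments, a mean of 3.53 and 3.52 identical reads each. Spliced reads made up 6.47% of BxC reads and 6.20% of CxB reads. Only 43.6% of BxC exon reads and 43.1% of CxB exon reads lay on the strand of their gene, so reads on either strand were counted. Intervals are given at 95% and cover counting error only. They treat reads as independent, which PCR copies are not, so they are too narrow where identical reads are copies. Each cross had a single library, so the spread between replicates is unknown, and no difference between the crosses was tested. Read depths along a gene are reads per base as counted, without scaling to the library total, which was lower in CxB. Fewer cells expressing a gene and less RNA per cell cannot be told apart in whole-brain libraries.

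Reads lay over the exons of all 4 genes in both libraries, with levels in the order Begain, Dlk1, Rtl1 and Dio3. For Rtl1, reads from transcripts on the opposite strand cannot be told apart, so its level may not be that of Rtl1 alone. Levels are reads per kb of annotated exon, scaled to the library total (RPKM), which allows genes of different length to be set side by side. Begain (ENSMUSG00000040867.8, minus strand, mm9 chr12:110270397-110291589) had 8560 reads in BxC and 7463 in CxB. Its level was 25.0 RPKM in BxC (24.5 to 25.6) and 25.7 RPKM in CxB (25.1 to 26.2). Begain stood above 92.5% and 92.7% of the 22380 annotated protein-coding genes. Dlk1 (ENSMUSG00000040856.11, plus strand, chr12:110691033-110701546) had 3763 reads in BxC and 3646 in CxB. Its level was 5.16 RPKM in BxC (4.995 to 5.33) and 5.87 RPKM in CxB (5.69 to 6.07). This level depends on the gene model, since the annotated exons cover 5657 bases and the catalog exons 1634, with 2645 of the added bases at the end of the last exon. Over the catalog exons alone, Dlk1 had 14.0 RPKM in BxC and 16.8 RPKM in CxB. Rtl1 (ENSMUSG00000085925.2, minus strand, chr12:110827404-110838540) had 2563 reads in BxC and 2065 in CxB. Its level was 3.13 RPKM (3.01 to 3.25) and 2.96 RPKM (2.83 to 3.09). Dio3 (ENSMUSG00000075707.4, plus strand, chr12:111517278-111519307) had the fewest reads, 249 in BxC and 214 in CxB. Its level was 0.951 RPKM in BxC (0.837 to 1.08) and 0.961 RPKM in CxB (0.836 to 1.10). With identical reads counted once, scaled to the distinct alignments of the library, it was 2.18 and 2.25. The counting intervals of neighbours in this order did not overlap in either library.

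By level over catalog exons, Begain ranked 27th and 26th of the 128 catalog entries, in BxC and CxB respectively. Dlk1 ranked 33rd and 32nd, Rtl1 62nd in both, and Dio3 77th and 76th. The Rtl1 rank also rests on reads that may come from opposite transcripts. The protein-coding genes nearest to Begain in mean level were Mast2, Eif6 and Timm13. Those nearest to Dlk1 were Zfp697, Paqr3 and Ddx50, those nearest to Rtl1 were Lmln, Bub1b and Svip, and those nearest to Dio3 were Neu3, 4930539E08Rik and Zfp870. With 2 libraries, likeness of pattern across samples was not measured.

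**Figure D1:**
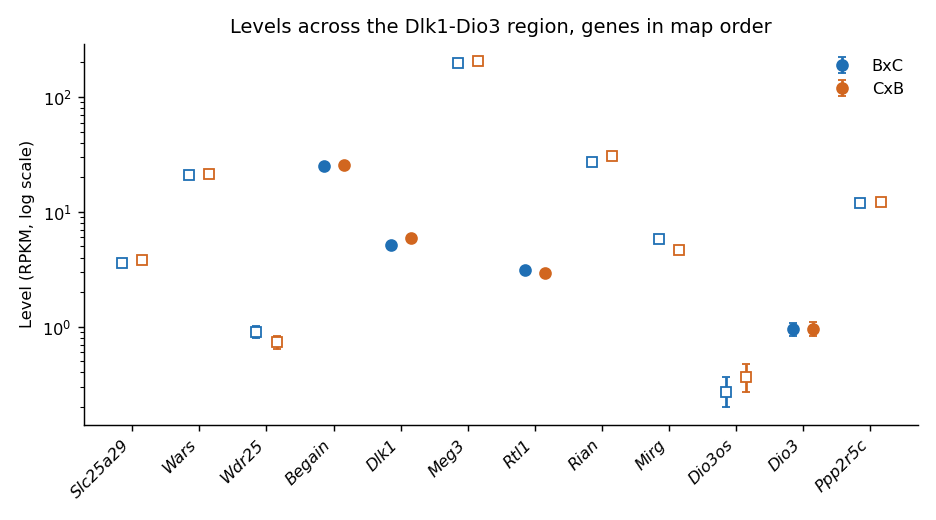
Level of 12 genes of the region in RPKM (log scale), in map order, with filled circles for the 4 coding genes of the cluster, open squares for their neighbours and bars for the 95% counting interval. The 2 libraries sit close together for each gene, and the coding genes span 0.951 RPKM (Dio3) to 25.7 RPKM (Begain), all below Meg3.

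The total levels of these genes differed by at most 1.14-fold between the libraries. The log2 ratio of CxB over BxC was 0.04 for Begain (−0.01 to 0.08) and 0.01 for Dio3 (−0.26 to 0.28). The ratio of reads over Rtl1, on either strand, was −0.08 (−0.16 to 0.01). Dlk1 had a counting interval that left out 0, with a log2 ratio of 0.19 (0.12 to 0.25) or 1.14-fold (1.09 to 1.19). In the same comparison, 88.5% of genes had a lower ratio than Dlk1. The middle 90% of all 15427 genes with at least 100 reads in each library lay between −0.29 and 0.28, so all 4 ratios fell inside the ordinary spread between these libraries. None of the 4 (0 of 4) exceeded 1.5-fold, against a background of 1.1% of genes (169 of 15427). Which intervals left out 0 depended on the count. With identical reads counted once, the Dlk1 ratio was 0.021 (−0.09 to 0.13) and the Begain ratio 0.12 (0.03 to 0.21). Over the catalog exons the ratios were 0.26 for Dlk1 (0.19 to 0.34), 0.06 for Begain (0.02 to 0.10) and −0.12 for Rtl1 (−0.21 to −0.02).

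Reads at the 5′ end of Begain followed the first exon of the catalog, which the annotation lacks. The catalog places the first exon at chr12:110306336-110306427, and the annotation places another at chr12:110291554-110291589, with 14.7 kb of intron between them. The 3 junction sequences below, 15 bases on each side and 5′ to 3′ on the minus strand of mm9, show both first exons and the skip of exon 3. Capitals mark the upstream exon.
Begain catalog exon 1 to exon 2: CGGCTTCGCCGGGCGgcctctgccgcagac
Begain annotated first exon to exon 2: AGGCTCCGAACCCCGgcctctgccgcagac
Begain exon 2 to exon 4: CATGGAGAAACTCAGgattcagagcaacta

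The catalog first exon was read at a mean depth of 118 reads per base in BxC and 156 in CxB, from 340 and 452 reads. The annotated first exon had a depth of 3.36 in BxC and 7.06 in CxB, from 7 and 14 reads. The stretch of intron between them had a depth of 1.24 and 0.974. Depth was thus far lower on the annotated exon than on the catalog exon in both libraries, though above the mean of the intron. The reads on the annotated exon lay on only 3 distinct alignments in BxC and 6 in CxB. Depth within the intron reached 39 and 50 in places. The junction from the catalog exon to exon 2 carried 28 spliced reads in BxC and 32 in CxB. The junction from the annotated first exon carried 0 in both libraries. By the methods, reads were aligned to the genome and to transcripts or junctions of gene models, here called the alignment reference. In the alignment for the discovery of imprinted genes, these junctions included ones that skip exons of the models. A junction outside it could hold no spliced read, and whether it held this junction is not known. If it did, the 0 allows up to 3 reads (1-sided limit). Across the end of the annotated exon, 7 BxC reads and 13 CxB reads ran unspliced with at least 8 bases on each side. The genomic bases at the ends of that annotated intron are AG and AG, whereas every other Begain intron here starts with GT and ends with AG. The coding sequence of the catalog entry starts with ATG in its first exon and covers 42 bases there, or 14 codons. That of the annotated transcript starts with CTC at the first base of its 36-base exon.

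The remaining Begain junctions carried 11 to 54 spliced reads. Exon 3 to exon 4 had 53 in BxC and 49 in CxB, and exon 5 to exon 6 had the fewest, 13 and 11. A junction from exon 2 to exon 4, which skips exon 3 and is in neither gene model, had 0 reads in BxC and 5 in CxB, at 3 distinct positions. It was named after its values were seen. The count of 0 in BxC allows up to 3 reads, and the difference from CxB was not tested.

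**Figure D2:**
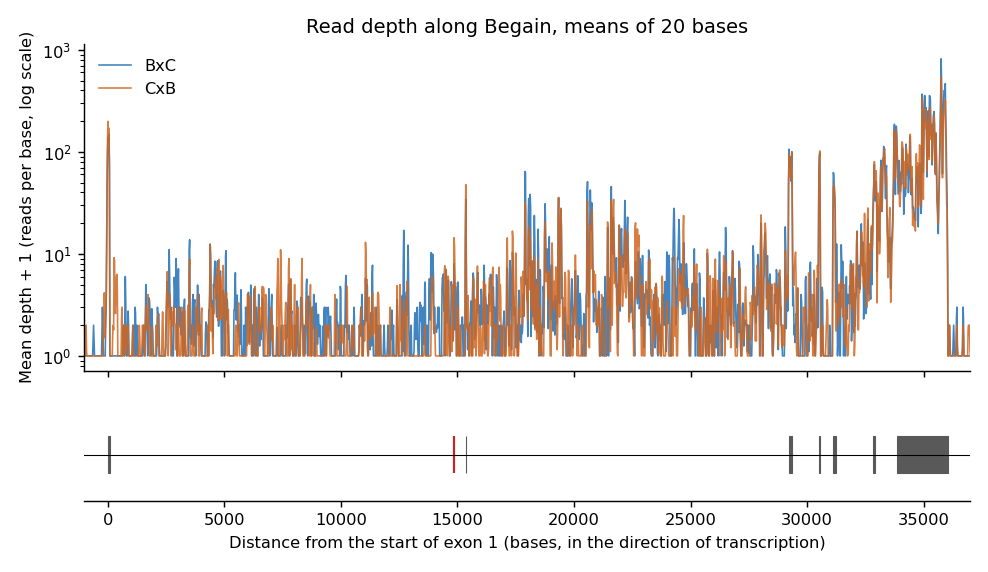
Mean read depth plus 1 along Begain (reads per base, log scale, means of 20 bases) in BxC and CxB against distance from the start of the catalog first exon (bases), with catalog exons in grey and the annotated first exon in red below. Depth peaks on the catalog first exon (118 and 156 reads per base), stays low at the annotated one (3.36 and 7.06), peaks on the inner exons, and stays high from exon 6 through the last intron into exon 7.

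Exon use along Begain was uneven. Exon 7, which holds most of the coding sequence and the 3′ end, had 87.5% of exon reads in BxC (86.7 to 88.1) and 84.9% in CxB (84.1 to 85.7) over 80.0% of exon length. Within exon 7 the part after the stop codon had a depth of 196 reads per base in BxC and 150 in CxB. Its coding part had 87.5 and 86.3, and exons 2 to 6 had 34.1 to 81.3. Reads ended sharply at the annotated end, with a depth of 0.233 and 0.171 over the next 2 kb. The first exon took 3.84% of exon reads in BxC (3.45 to 4.26) and 5.74% in CxB (5.24 to 6.28). Its log2 ratio of CxB over BxC was 0.64 (0.44 to 0.85), that of exon 2 was 0.59 (0.09 to 1.10), and that of exon 7 was 0.02 (−0.03 to 0.07). With identical reads counted once, exon 1 had a ratio of 0.43 (−0.01 to 0.87) and exon 2 a ratio of 0.49 (−0.19 to 1.18), and both intervals include 0. That of exon 7 was then 0.11 (0.01 to 0.20), which leaves out 0.

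The last intron of Begain, intron 6, was read as deeply as the exon before it. Its 976 bases had a depth of 49.6 reads per base in BxC and 48.8 in CxB, and exon 6 had 42.9 and 35.6. The other introns of the gene had depths of 0.392 to 5.14. Every base of intron 6 was covered in both libraries. Spliced and unspliced reads differ at the end of exon 6 as follows, with exon 6 in capitals.
Begain exon 6 to exon 7: CATAAGGTGTCCGAGctgccctcggacttc
Begain exon 6 to intron 6, unspliced: CATAAGGTGTCCGAGgtaacgtggccccgc

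At the end of exon 6, with at least 8 bases on each side, 27 BxC reads were spliced and 47 ran into the intron. In CxB 42 were spliced and 37 ran into the intron. The spliced share was 36.5% in BxC (25.6 to 48.5) and 53.2% in CxB (41.6 to 64.5). At the start of exon 7 the unspliced reads were 23 in BxC and 9 in CxB, which gave spliced shares of 54.0% (39.3 to 68.2) and 82.4% (69.1 to 91.6). Unspliced reads were thus frequent at both ends in both libraries. The intervals of the crosses overlapped at the end of exon 6 but did not at the start of exon 7. These intervals treat identical reads as independent. With any overlap, the junction carried 38 spliced reads in BxC and 54 in CxB, on 14 distinct alignments in each library. The largest alignment held 7 BxC reads and 12 CxB reads. The shares were not recomputed with identical reads counted once, and a difference in splicing between the crosses was not tested. At the exon 4 to exon 5 junction all 35 BxC reads and all 37 CxB reads with at least 8 bases on each side were spliced.

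**Figure D3:**
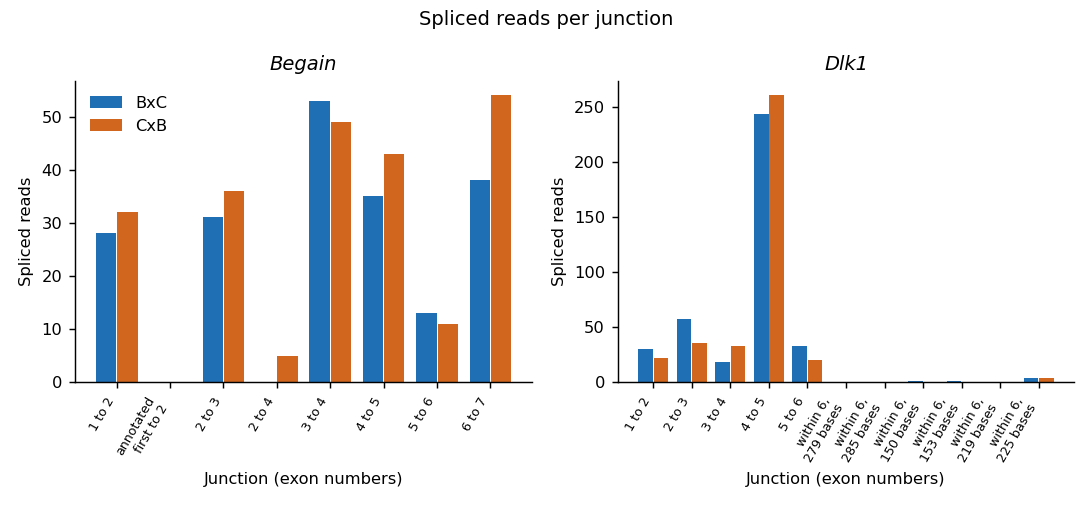
Spliced reads on each junction of Begain (left) and Dlk1 (right) in BxC and CxB, with junctions named by exon numbers and bars starting at 0. The junction from the annotated first exon of Begain has 0 reads, and whether the alignment reference held it is not known. The exon 4 to exon 5 junction of Dlk1 stands highest with 244 and 261, and junctions inside exon 6 of Dlk1 hold at most 4 reads each.

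Dlk1 is read from 6 exons, and its last exon contains a stretch that can be removed in frame. Proteins without it are known to keep their membrane anchor but to lack the cleavage site next to the membrane that releases a soluble form. The annotation lists 6 introns inside exon 6, of 150, 153, 219, 225, 279 and 285 bases, each a multiple of 3. The sequences below, 5′ to 3′ on the plus strand of mm9, show the main junction, the contiguous exon and the removal of 225 bases (chr12:110698103-110698327, 75 codons). Capitals mark the bases before the junction or the donor site.
Dlk1 exon 4 to exon 5: AATTCTGCGAAATAGacgttcgggcttgca
Dlk1 exon 6 contiguous: CTCCAGCACACCCAGgtgagcttcgagtgt
Dlk1 exon 6 internal: CTCCAGCACACCCAGgccatctgcttcacc

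Few of the spliced reads of Dlk1 lay inside exon 6. The removal of 225 bases had 4 reads in BxC and 4 in CxB, and those of 150 and 153 bases had 1 BxC read each and 0 CxB reads. The other 3 internal introns had no read in either library. None of the internal introns is in the catalog, and the alignment reference may have lacked those without a read. Their 0 therefore does not show that this splicing was absent, and the shares below cover only junctions that the reference held. Internal junctions made up 6 of 388 spliced reads in BxC, 1.55% (0.57 to 3.34), and 4 of 376 in CxB, 1.06% (0.29 to 2.70). Counted as distinct alignments, the shares were 4.20% and 3.33%. At the donor site itself, which few contiguous reads crossed, the share was larger. With at least 8 bases on each side, 12 BxC reads ran across the donor and 6 were spliced from it, or 33.3% (13.3 to 59.0). In CxB 8 ran across and 4 were spliced, or 33.3% (9.92 to 65.1). At the acceptor of the 225-base removal, 4 BxC reads were spliced and 25 were not, or 13.8% (3.89 to 31.7), and 4 CxB reads were spliced and 6 were not, an interval of 12.2% to 73.8%. The removable stretch itself had a depth of 58.8 reads per base in BxC and 68.6 in CxB, beside 55.8 and 56.7 before it and 63.0 and 63.5 in the coding part after it. The share of all spliced reads and the share at the donor have different denominators and are not measures of the same thing. Exon 4 to exon 5 alone supplied 244 of the 388 spliced reads in BxC and 261 of the 376 in CxB. The donor share rests on 18 BxC reads and 12 CxB reads.

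The other junctions of Dlk1 had very unequal counts. Exon 4 to exon 5 carried 244 spliced reads in BxC and 261 in CxB, on 56 and 35 distinct alignments. Exon 2 to exon 3 followed in both libraries with 57 and 36. Exon 1 to exon 2 had 30 and 22, exon 3 to exon 4 had 18 and 33, and exon 5 to exon 6 had 33 and 20. The largest alignment on the exon 4 to exon 5 junction held 32 reads in each library, so its count did not rest on 1 pile of identical reads.

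Depth differed widely between the Dlk1 exons. Exons 2, 4 and 5 had depths of 73.5 to 84.6 reads per base. Exon 3 had 37.9 in BxC and 22.2 in CxB, and exon 1 had 21.4 and 14.0. Exon 1 was lower in CxB, with a log2 ratio of −0.37 (−0.64 to −0.10), whereas exon 6 had a ratio of 0.23 (0.15 to 0.32). With identical reads counted once, the exon 1 ratio was −0.41 (−0.79 to −0.04) and the exon 6 ratio 0.065 (−0.08 to 0.21), which includes 0. Intron 1, in which alternative first exons are annotated, had a depth of 25.2 and 24.2, above the mean of the annotated exon 1 in both libraries. That exon spans chr12:110691059-110691504, whereas the catalog entry starts at 110691433. Its mean depth and ratio therefore include bases outside the catalog entry. At the start of exon 2, 52 BxC reads and 29 CxB reads came unspliced from intron 1, beside 26 and 19 spliced reads. At the end of exon 1, by contrast, 0 reads ran unspliced into intron 1 in either library, beside the same 26 and 19 spliced reads. The unspliced reads at exon 2 were thus not matched by reads running on from exon 1. The other introns had depths of only 0.495 to 1.65.

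Depth over Dlk1 fell at the end of the catalog entry. From the stop codon to that end, at chr12:110698568-110698901, the depth was 66.2 in BxC and 69.2 in CxB. Over the 2645 bases of the annotated exon beyond it, the depth was 5.78 and 4.63. In the 2 kb after the annotated end there was no read in either library. The annotated exon beyond the catalog end held 425 BxC reads and 340 CxB reads.

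**Figure D4:**
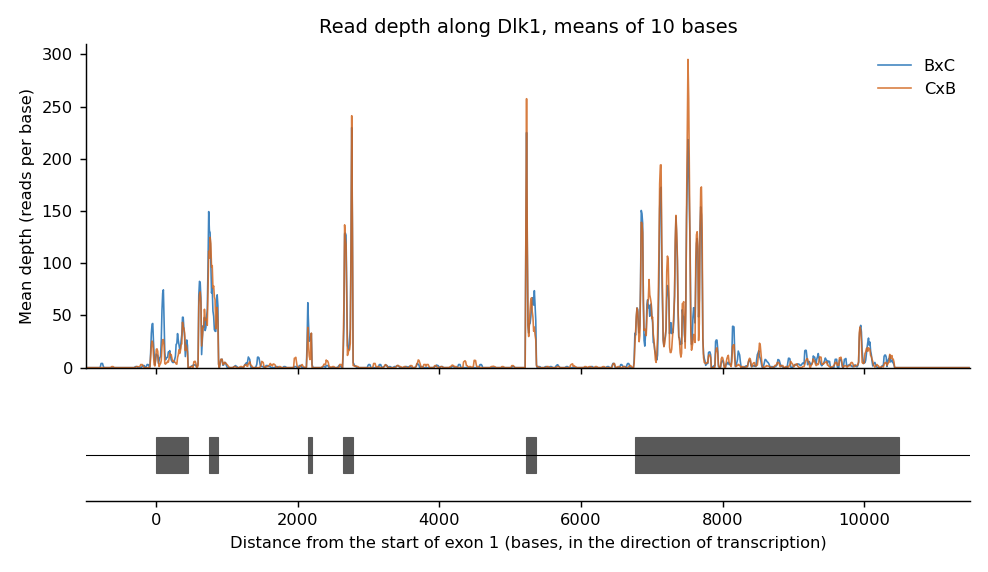
Mean read depth along Dlk1 (reads per base, means of 10 bases) in BxC and CxB against distance from the start of exon 1 (bases), with annotated exons in grey below. Exons 2, 4 and 5 and the first part of exon 6 stand high in both libraries, and the long end of exon 6 stays low at a mean of 5.78 and 4.63.

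Reads over Rtl1 did not follow its annotated exons. No spliced read was found in either library. The catalog entry of Rtl1 has 1 exon, and whether the alignment reference held the annotated junction is not known. The lack of spliced reads therefore does not show that splicing was absent. The annotated intron of 4780 bases had a depth of 22.1 reads per base in BxC and 18.3 in CxB. The coding part, at chr12:110828382-110833613, had a depth of 13.9 and 10.9. The 62-base first exon had a depth of 1.32 and 2.42, from 7 and 9 reads. At the end of this exon 7 BxC reads and 2 CxB reads ran unspliced into the intron, and 15 and 6 ran from the intron into exon 2. Depth did not fall to 0 outside the gene either, with 6.39 and 8.61 over the 2 kb before it and 8.23 and 5.78 over the 2 kb after it.

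Reads from Rtl1 and from transcripts on the opposite strand cannot be told apart in these libraries. The window between Meg3 and Rtl1 held 462 reads per kb in BxC and 362 in CxB, and that between Rtl1 and Rian 170 and 204. By contrast, the window between Begain and Dlk1 held 0.413 and 0.307 reads per kb. The share of reads on the gene's own strand was 63.4% for Rtl1 in BxC (61.5 to 65.2) and 60.3% in CxB (58.2 to 62.5). It was 40.1% and 39.3% for Begain, 42.5% and 42.3% for Dlk1, and 47.0% and 42.5% for Dio3. Rtl1 stood above 98.8% and 98.5% of coding genes with at least 1000 reads in this share. The intergenic window between Meg3 and Rtl1 also had 64.3% and 66.5% of its reads on the minus strand, the strand of Rtl1. With identical reads counted once the Rtl1 shares were 52.2% and 52.5%, above 78.1% and 85.6% of those genes. With all reads counted, the median share of those genes was 43.9% in BxC and 43.2% in CxB. Among the plus-strand noncoding RNAs, Mirg had 66.9% and 63.6% of its reads on the minus strand. Meg3 had 58.6% there in both libraries, and Rian 47.1% and 39.3%. The Meg3 share on its own strand, 41.4% in both libraries, was near the median of the coding genes. With identical reads counted once, the plus-strand shares were 52.7% and 52.6% for Meg3, 55.5% and 55.6% for Rian, and 44.3% and 44.8% for Mirg. A minus-strand majority thus also occurred over the plus-strand genes Mirg and Meg3 with all reads counted, but only over Mirg when counted once. The strand of origin of the Rtl1 reads was not tested.

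Depth along exon 2 of Rtl1 varied widely and in the same places in both libraries. In windows of 500 bases from its start, mean depth ranged from 0.808 to 56.6 in BxC and from 0.34 to 32.3 in CxB. The window of bases 4001 to 4500 was highest and that of bases 501 to 1000 lowest in both. No alignment held more than 29 BxC reads or 34 CxB reads, so these peaks were sums over many positions.

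Depth was low at some of the miRNA hairpins opposite Rtl1. Mature arms of 6 hairpins, 11 in all, matched the opposite strand of the Rtl1 coding sequence without a mismatch. Mature sequences were taken from RefSeq, and sites were read from mm9 on the minus strand. The pairs below are shown for 2 hairpins with a gap and 1 without. Capitals mark the seed, bases 2 to 8 of the miRNA, and its complement in the Rtl1 strand.
mmu-miR-127-3p: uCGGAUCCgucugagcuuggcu
Rtl1 site of miR-127-3p: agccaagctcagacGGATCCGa
mmu-miR-136-3p: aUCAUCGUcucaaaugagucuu
Rtl1 site of miR-136-3p: aagactcatttgagACGATGAt
mmu-miR-433-3p: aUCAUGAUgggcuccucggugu
Rtl1 site of miR-433-3p: acaccgaggagcccATCATGAt

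Over the miR-127-3p site (chr12:110831098-110831119) mean depth was 0 in BxC and 2.00 in CxB. The 100 bases on each side of it had 25.3 and 16.7 reads per base. Over the miR-136-3p site (chr12:110833576-110833597) mean depth was 0.182 and 1.14, with 10.4 on its sides in both libraries. No such gap was seen at the miR-433-3p site (chr12:110829991-110830012), where depth was 27.3 and 13.8 against 20.8 and 15.1 on its sides. Over whole hairpins, Mir127 had 7.14 reads per base in BxC and 5.27 in CxB, against 26.4 and 19.6 on its sides. Mir136 had 1.28 and 1.80 against 12 and 11.4, and Mir434 had 1.24 and 0.415 against 3.92 and 4.92. These were the 3 of 6 hairpins with less depth than 0.5 of that on their sides in both libraries. The threshold of 0.5 was chosen after the values were seen. How often other stretches of Rtl1 fell below it was not counted, so the 3 of 6 have no background. Low depth was not confined to hairpins, since reads covered only 86.5% of the bases of the coding part in BxC and 87.0% in CxB. Mir433 had a ratio to its sides of 1.14 and 0.758, Mir431 had 0.468 and 1.86, and the sides of Mir432 had under 1 read per base. Whether uneven depth or the alignment of reads to hairpins gave these gaps was not tested.

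**Figure D5:**
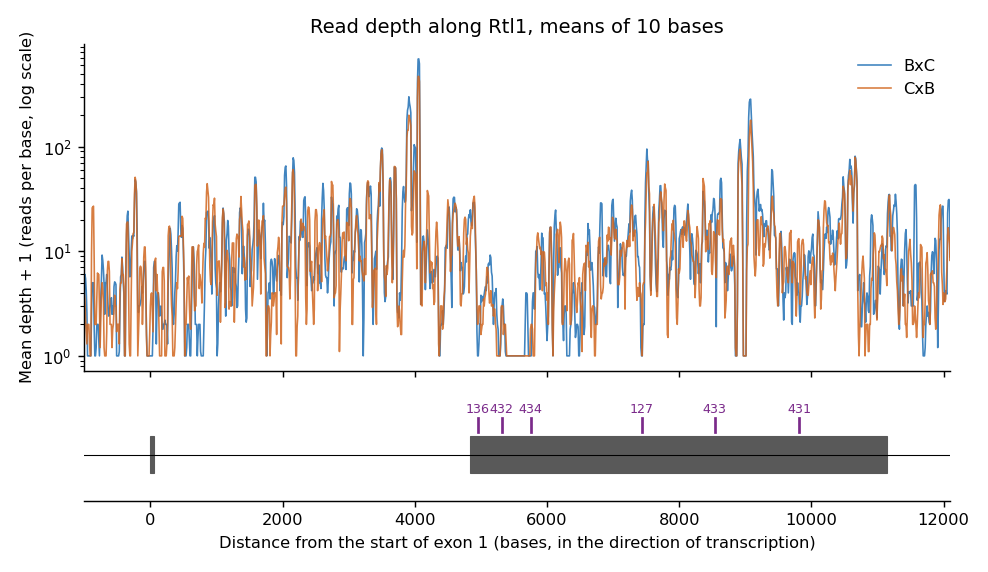
Mean read depth plus 1 along Rtl1 (reads per base, log scale, means of 10 bases) in BxC and CxB against distance from the start of exon 1 (bases), with annotated exons in grey and the 6 miRNA hairpins of the opposite strand as purple ticks below. The intron between the grey boxes is read at 22.1 and 18.3 reads per base, above the coding part of exon 2 at 13.9 and 10.9, and depth drops at miR-136 and miR-127.

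Dio3 was read at a low depth from its only exon. The part before the start codon had 5.42 reads per base in BxC (4.01 to 7.17) and 3.48 in CxB (2.38 to 4.91). The coding part, at chr12:111517520-111518353, had 4.13 (3.37 to 5.01) and 4.67 (3.84 to 5.63). The part after the stop codon had 4.35 (3.59 to 5.22) and 3.11 (2.48 to 3.85). The intervals of the 2 libraries overlapped in each part, without scaling to the library total. Reads stopped at the annotated end, with 0 in the next 2 kb in both libraries, whereas the 2 kb before the start had a depth of 1.38 and 1.48. The opposite transcript Dio3os had 45 reads in BxC and 51 in CxB, or 0.272 and 0.363 RPKM. At these read numbers the counting interval of the Dio3 log2 ratio was −0.26 to 0.28. With identical reads counted once it was −0.29 to 0.38, and neither interval includes the spread between replicates.

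Of the maternally expressed noncoding RNAs between these coding genes, Meg3 and Rian were above all 4 in level with all reads counted, and Mirg was not. For Rian this order depended on the count. Its reads lay on 5488 distinct alignments in BxC and 4531 in CxB over 8197 exon bases. Begain had 2175 and 2011 over 2651 bases, which is more per base than Rian. Meg3 had 199 RPKM in BxC and 204 in CxB, Rian 27.0 and 30.4, and Mirg 5.84 and 4.62. Of 11 genes in and around the cluster, 10 had at least 100 reads in each library and 0 exceeded 1.5-fold, beside 1.1% of all genes. Their median log2 ratio was 0.03 with a range of −0.34 (Mirg) to 0.20 (Yy1), beside a median of −0.001 over all genes.

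Genes of pathways or structures linked to Dio3, Dlk1 and Begain, and genes of like origin to Rtl1, were counted in the same way. Their counts past 1.5-fold stand beside the same 1.1% of all genes. Of 16 genes for the transport, conversion and reception of thyroid hormone, beside Dio3, 15 reached 100 reads in each library and 0 exceeded 1.5-fold, with a median log2 ratio of −0.01. Ttr, which carries thyroid hormone in the cerebrospinal fluid, was the most abundant of them at 253 and 281 RPKM. Dio2, which activates thyroid hormone, had 0.667 and 0.809 RPKM, and Dio1 had no read. Of 21 genes of the Notch pathway, all reached 100 reads and 0 exceeded 1.5-fold, with a median of −0.04. The protease gene Adam10 led this list in BxC at 22.2 RPKM, with 24.4 in CxB, where the fringe gene Rfng was at 24.9, and Dlk2, the closest relative of Dlk1, had 17.9 and 19.0 RPKM. Of 13 genes for scaffolds of the postsynaptic density, 0 exceeded 1.5-fold, with a median of 0.03. Shank1 led them at 108 and 107 RPKM, and Dlg4, which encodes the Begain partner PSD-95, had 88.8 and 86.3 RPKM. Of 14 other genes derived from gag sequences, as Rtl1 is, 1 exceeded 1.5-fold, Zcchc16 with a log2 ratio of 0.62 from 138 and 181 reads. Their median was 0.03, and Cxx1c led them at 46.9 and 51.4 RPKM.

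Markers of the labelled tissue were present. All 5 neuronal markers and all 5 of radial glia and astrocytes had at least 100 reads in each library, with summed levels of 1461 and 1343 RPKM and of 308 and 319 RPKM in BxC and CxB. Since Dlk1 is strongly expressed in the pituitary and in embryonic muscle, markers of other tissues were summed as well. Pituitary markers summed to 4.47 RPKM in BxC and 4.81 in CxB, with 3 of 10 genes at 100 reads and no read for Gh and Cga. Skeletal muscle markers summed to 4.29 and 4.54 RPKM, and 3 of 4 reached 100 reads in each library. The muscle genes moved both ways, with log2 ratios of −0.30 for Acta1, −0.29 for Myh3, 0.48 for Tnnt3 and 0.62 for Ckm. The part of these tissues in the Dlk1 ratio was not tested. Choroid plexus markers summed to 264 and 292 RPKM, of which Ttr alone had 253 and 281. Those of meninges and mesenchyme summed to 56.5 and 50.7 RPKM. Blood markers summed to 279 and 227 RPKM, and those of liver to 1.18 and 1.47 RPKM, with 0 of 3 liver genes at 100 reads. The liver gene Alb, named after its values were seen, had 0 reads in BxC and 45 in CxB, on 39 distinct alignments.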

How the data were processed

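Per the labels and the methods, the authors extracted polyA+ RNA from whole brains, aligned reads of 36 bases with Novoalign (version not given in the sources used here) to mm9 and kept unique alignments. The sources used here do not say which of their alignments the files hold. The deposited files hold a raw count per alignment, read here from the values as the number of identical reads. No normalization had been applied, and 0 columns were left unassigned. The methods describe a protocol that marks strand, but exon reads fell on both strands, so counts on the gene's strand, set as the main count in the design, became an alternative.

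Reads were counted where an aligned block overlapped the merged exons of a gene in GENCODE vM1, on the same mm9 build. Totals were 128944754 (BxC) and 109719746 (CxB) reads. Poisson, Clopper-Pearson and conditional binomial intervals are exact at 95% for independent reads. A count of 0 is read as allowing up to 3 reads, a 1-sided limit. For a spliced junction this holds only if the alignment reference held the junction. On simulated counts for 15427 genes, drawn as independent reads, 95.2% of ratio intervals held the true value. The simulation held no PCR copies, so it does not give the coverage of the intervals in these data. Python 3.11.15, NumPy 2.4.6, pandas 2.3.3 and SciPy 1.17.1 were used. The named genes are the 4 members with their exons and junctions of at least 10 reads, the leading gene and those past 1.5-fold of each list, and the 3 genes nearest in level. Junctions with fewer reads, Dlk2, Dio2, Dlg4, Yy1, Rfng, Alb, the muscle markers and the other genes of the region were added after their values were seen. The members and lists were chosen with earlier results of these data known. The symbol Map2 is listed as Mtap2 in the annotation.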

Additional observations from a re-analysis of the deposited data

How the results depend on the processing

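Of 68 values recomputed under other settings, 33 stayed inside the counting interval of the value reported and 35 did not, although no log2 ratio of the 4 genes went past 0.26 in any setting. With identical reads counted once, the log2 ratio was 0.12 for Begain and 0.021 for Dlk1, and levels in BxC and CxB were 22.4 and 24.3 (Begain), 6.70 and 6.80 (Dlk1), 4.67 and 4.58 (Rtl1) and 2.18 and 2.25 (Dio3). The shares on the gene's strand were then 48.3% and 47.5% (Begain), 47.2% and 47.6% (Dlk1) and 52.2% and 52.5% (Rtl1). The share of internal Dlk1 junctions was 4.20% and 3.33%, and last exons held 61.0% and 63.3% (Dlk1) and 80.0% and 78.9% (Begain). Over catalog exons the Dlk1 ratio was 0.26, its levels were 14.0 and 16.8, and the CxB levels of Begain and Rtl1 were 26.4 and 2.78. Reads on the gene's strand alone, the main count of the design and made an alternative once the strands were seen, gave levels of 10.04 and 10.1 (Begain), 2.19 and 2.49 (Dlk1), 1.98 and 1.79 (Rtl1) and 0.447 and 0.409 (Dio3), by construction lower. With at least 10 reads per library, 1536 genes exceeded 1.5-fold, more than the 169 at 100 reads, since genes of few reads enter. The cause of the other shifts was not tested. The planned setting of reads on either strand became the main count. No paired analysis was possible because each cross had 1 library and the labels give no replicate numbers, and no replicate could be left out. Few reads limit the precision for Dio3, for the internal junctions of Dlk1 and for the annotated first exons of Begain and Rtl1.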
